A study of Rattus norvegicus with 26 samples.

Results

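Genes that mark the cells of brain blood vessels were examined in RNA of the rat dentate gyrus (DG), the part of the hippocampus in which granule cells lie. The 39 genes were chosen by symbol for 6 roles: 16 endothelial surface and adhesion genes, 3 tight junction genes, 6 barrier transport genes, 5 vascular transcription factors, 5 pericyte genes and 4 smooth muscle genes. Of the 39 genes, 36 had a mean of at least 5 normalized counts over all rats and were tested, among 15595 tested genes in all. Pecam1 and Foxf2 were not found under these symbols in the values, and Cnn1, a smooth muscle gene, fell under the filter with a mean of 3.14, while the lowest member inside it, the transcription factor gene Foxq1, had a mean of 21.6. All rats were male F344 rats 6 months of age. The Veh group, 10 rats, received vehicle by oral gavage and was part of another ongoing study. The Dox group, 8 rats, received doxorubicin, an anthracycline used in chemotherapy, given by intraperitoneal injection in 4 weekly doses of 2 mg/kg. The Dox + ABT group, 8 rats, received the same doxorubicin and also ABT-263, a senolytic that blocks anti-apoptotic proteins of the BCL-2 family, gavaged at 12 mg/kg on 5 days in a row every other week. RNA came from the DG of 1 hemisphere of each rat, with 1 library per rat, so replicates are separate animals.

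The walls of brain capillaries are a single layer of endothelial cells sealed to each other by tight junctions, with pericytes embedded in the basement membrane around them. Arterioles carry a coat of smooth muscle cells in place of pericytes. Because the sealed endothelium lets few solutes pass between cells, glucose, amino acids, thyroid hormone and lipids cross on carriers in its membranes, and these carriers together with the junctions make up the blood-brain barrier. All of these cells are a small part of the tissue, and in RNA from whole tissue fewer cells of a type and less RNA per cell cannot be told apart.

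The libraries held an estimated 10.2 to 24.3 M reads, and the group medians were 16.7 M (Veh), 15.7 M (Dox) and 15.1 M (Dox + ABT). All 4 granule cell markers tested were above 0 in every rat, with a summed level, led by C1ql2, of 8177 to 13394 normalized counts. The 4 tested markers of the neighbouring CA fields, led by Wfs1, were above 0 in every rat too, with a summed level of 5295 to 16039 that ranged more widely; sums of different genes are not per length and are not set against each other. The libraries fell into 2 kinds along the first principal component of the deviations within groups: 16 of the first kind (4 Veh, 5 Dox, 7 Dox + ABT) and 10 of the second (6 Veh, 3 Dox, 1 Dox + ABT). Dox rats 1 and 2 lay outside the range of all 24 other rats, both on the same side, for 11.1% of all tested genes and for 12 of the 36 members, 8 below and 4 above. Dox rats 5 and 7 held the most red cell transcripts, with summed levels of 92650 and 129837 normalized counts against 2331 to 26012 in Veh. Results are therefore given with all rats and, where it matters, without Dox rats 1 and 2, without Dox rats 5 and 7, and within each kind of library.

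With all rats, doxorubicin was accompanied by lower RNA of a pair of organic anion transporters of the barrier, Slco1c1 and Slco1a4, of the endothelial membrane protein genes Itm2a and Emcn and of the pericyte gene Vtn, and by higher RNA of Vwf. These 6 members, 1 higher and 5 lower, passed p under 0.01 among the 36 tested, against 2.87% of all tested genes. The list was chosen with earlier results of these data known, so its count of calls is no independent test. The median difference of the members was 0.05 on the log2(value + 1) scale and that of all tested genes 0.0050, with 19 members above 0 and 17 below, so the list did not move in 1 direction. In Dox + ABT against Veh, 0 of 36 members passed with limma and 2 had an unadjusted p under 0.05, against 7.84% of all tested genes at p under 0.01. In Dox + ABT against Dox, 7 of 36 members passed, 4 higher and 3 lower, against 4.03% of all tested genes. The last comparison and the first share the Dox rats, so that a rat with extreme values enters both. No member reached an adjusted p under 0.05 in any of these comparisons with all rats, and the smallest was 0.068 for Itm2a in Dox + ABT against Dox (limma).

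**Figure D1:**
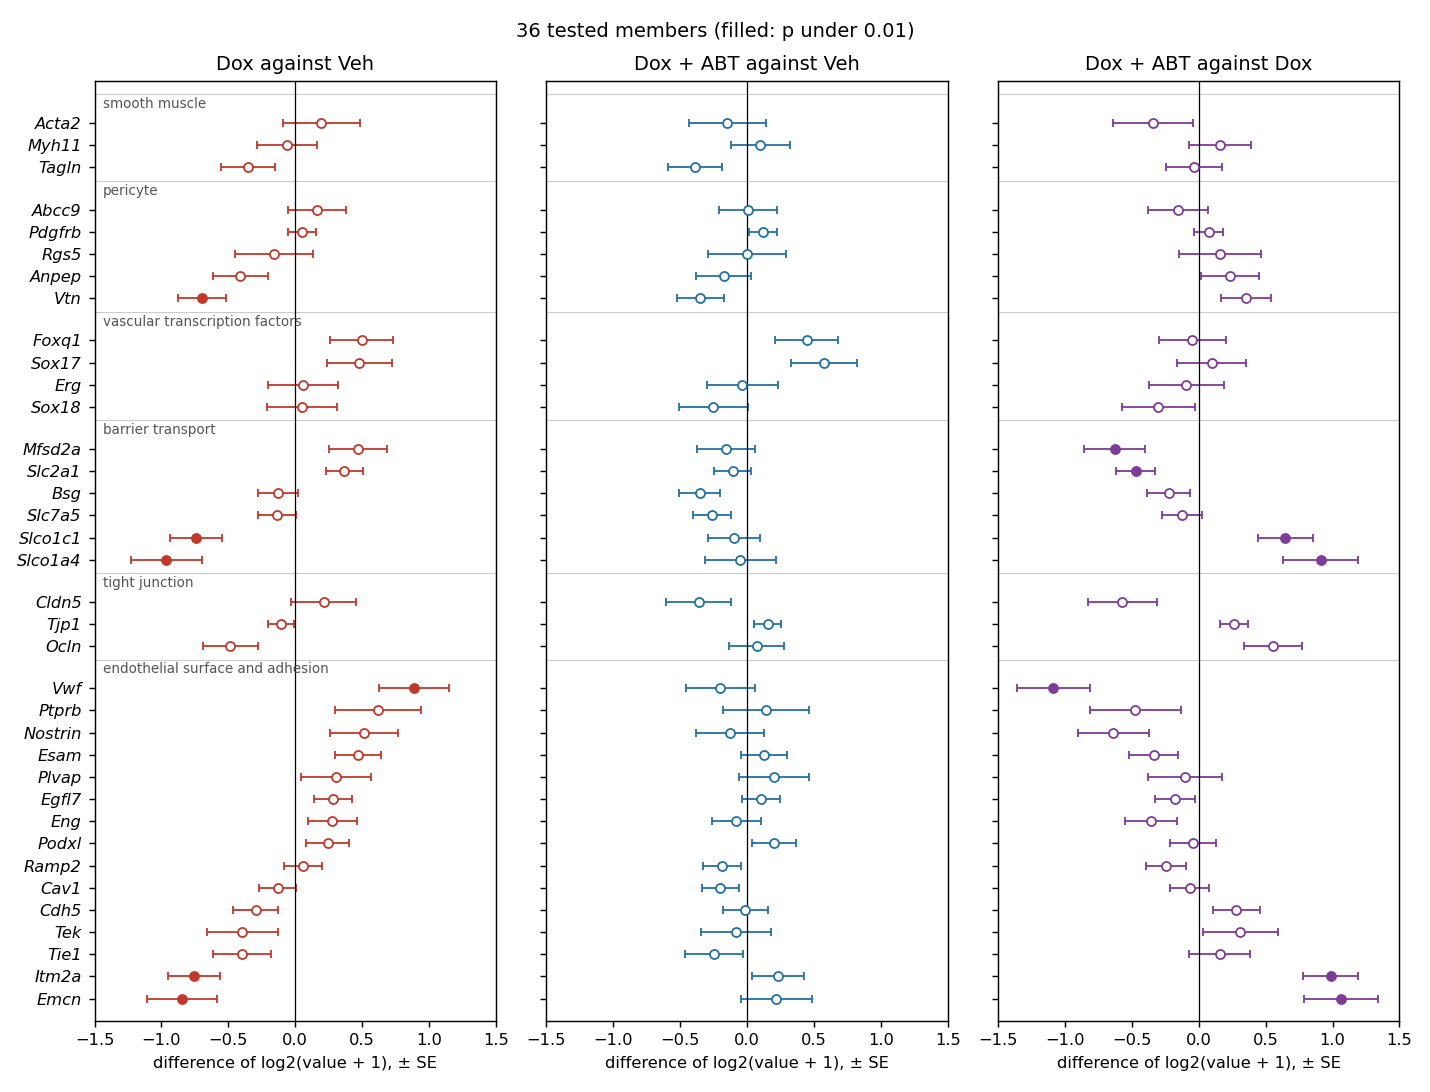
Difference of log2(value + 1) for the 36 tested members in each comparison, by role; points are limma estimates, bars are SE, and filled points passed p under 0.01. Filled points lie on both sides of 0 for Dox against Veh (1 above, 5 below) and for Dox + ABT against Dox (4 above, 3 below), and there are none for Dox + ABT against Veh.

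Of the 6 barrier transport genes, 2 were lower in Dox than in Veh, and in Dox + ABT against Dox 2 were higher and 2 lower. Slco1c1 encodes OATP1C1, a carrier of thyroxine in brain endothelium and astrocytes. Its normalized count ran from 549 through a median of 692 to 1199 in Veh, from 180 through 483 to 676 in Dox, and from 594 through 665 to 734 in Dox + ABT. All 8 Dox rats lay below the Veh median and 5 of them below every Veh rat, while the Dox + ABT rats stayed within the Veh range. The group means were 720 ± 183 (SD, n = 10), 458 ± 178 (SD, n = 8) and 659 ± 55.7 (SD, n = 8), in the same order. The difference from Veh on the log2(value + 1) scale was -0.74 (SE 0.19, p = 0.00063, adjusted p = 0.15) in Dox and -0.10 (SE 0.19, p = 0.62) in Dox + ABT, and Dox + ABT stood 0.65 (SE 0.20, p = 0.0037, adjusted p = 0.19) above Dox.

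Slco1a4, which encodes the endothelial organic anion transporter OATP1A4, belongs to a family of related paralogs. Whether the counting split reads shared among them was not examined. Its normalized count ran from 272 through a median of 394 to 759 in Veh, from 64.5 through 249 to 394 in Dox and from 292 through 396 to 461 in Dox + ABT. Again all 8 Dox rats lay below the Veh median, 4 of them below every Veh rat, and 5 of the 8 Dox + ABT rats lay above every Dox rat. The differences on the log2(value + 1) scale were -0.96 (SE 0.27, p = 0.0011, adjusted p = 0.17) for Dox against Veh, -0.05 (SE 0.27, p = 0.85) for Dox + ABT against Veh and 0.91 (SE 0.28, p = 0.0029, adjusted p = 0.19) for Dox + ABT against Dox. The lowest values of all, 81.6 and 64.5, were those of Dox rats 1 and 2, and without them both calls were lost, at -0.47 (SE 0.17, p = 0.010) and 0.41 (SE 0.18, p = 0.027).

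Slc2a1 encodes GLUT1, the glucose carrier of brain endothelium, also made by astrocytes. Its normalized count ran from 1072 to 1797 in Veh (median 1397), from 1401 to 2518 in Dox (median 1770) and from 889 to 1658 in Dox + ABT (median 1372). All 8 Dox rats lay above the Veh median, and 4 of 8 Dox + ABT rats lay below every Dox rat. The difference of 0.37 (SE 0.14, p = 0.013, adjusted p = 0.37) between Dox and Veh missed p under 0.01, and that between Dox + ABT and Dox was -0.47 (SE 0.15, p = 0.0030, adjusted p = 0.19). The highest values of all, 2299.6 and 2518, were those of Dox rats 1 and 2, and without them the latter was no longer called (-0.33, SE 0.15, p = 0.030).

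Mfsd2a encodes the carrier of lysophosphatidylcholine with docosahexaenoic acid in barrier endothelium. It had 2 rats that stood apart from all others: 1117 and 1241 normalized counts in Dox rats 1 and 2, against 279 to 430 in the other 6 Dox rats, 284 to 445 in Veh and 215 to 422 in Dox + ABT. The call in Dox + ABT against Dox (-0.63, SE 0.23, p = 0.0099, adjusted p = 0.25) rested on those rats, since without them the difference was -0.21 (SE 0.14, p = 0.13). Against Veh the Dox difference was 0.47 (SE 0.22, p = 0.038) with them and 0.05 (SE 0.13, p = 0.68) without them.

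Slc7a5, the large neutral amino acid carrier LAT1, averaged 1326 ± 251 (Veh, n = 10), 1227 ± 303 (Dox, n = 8) and 1110 ± 214 (Dox + ABT, n = 8), each with SD, and passed in none of the 3 comparisons. Bsg, a glycoprotein that chaperones monocarboxylate carriers and is made by many cell types, had the highest level of the members, its group medians being 10517 (Veh), 8379 (Dox) and 7459 (Dox + ABT). All 8 Dox + ABT rats lay below its Veh median, and the difference of -0.35 (SE 0.15, p = 0.028, adjusted p = 0.17) did not pass. Bsg also moved with the kind of library, standing 0.57 higher on the log2 scale in the second kind (p = 7.9e-07), which holds 6 of 10 Veh rats and 1 of 8 Dox + ABT rats.

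**Figure D2:**
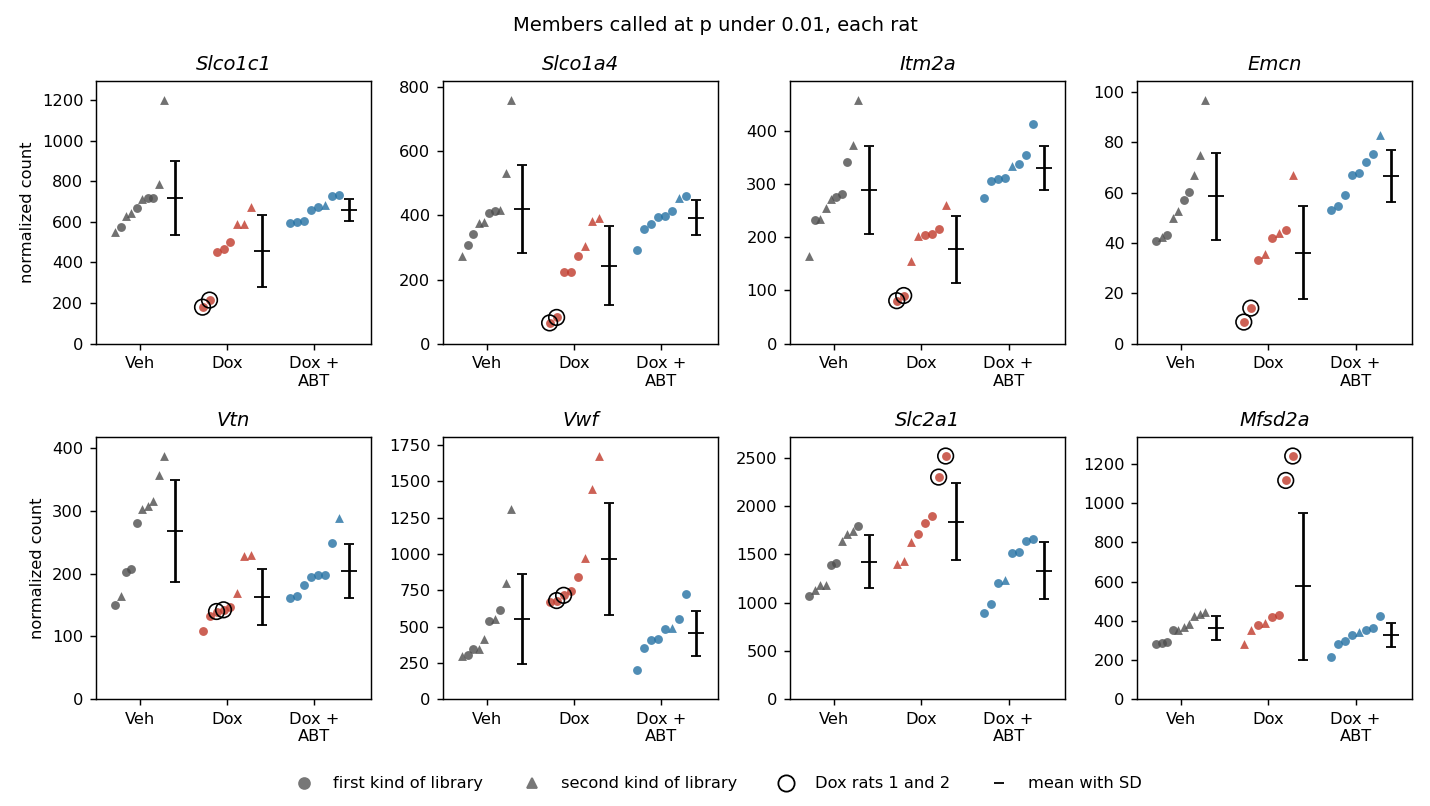
Normalized count of each rat for the 8 members called in Dox against Veh or in Dox + ABT against Dox; each point is a rat, circles and triangles are the first and second kind of library, rings mark Dox rats 1 and 2, and the bar beside each group is the mean with SD. The ringed rats are the lowest for Slco1c1, Slco1a4, Itm2a and Emcn and the highest for Slc2a1 and Mfsd2a, while Vwf is highest in Dox rats 5 and 7.

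Among the endothelial surface and adhesion genes 15 were tested, of which 1 was higher and 2 were lower in Dox than in Veh. Itm2a encodes a type II membrane protein abundant in brain endothelium. Its normalized count ran from 164 through a median of 274 to 457 in Veh, from 80.6 through 203 to 261 in Dox and from 273 through 322 to 413 in Dox + ABT. The Dox and Dox + ABT rats did not overlap, and all 8 Dox rats lay below the Veh median. The differences were -0.75 (SE 0.19, p = 0.00055, adjusted p = 0.14) for Dox against Veh, 0.23 (SE 0.19, p = 0.24) for Dox + ABT against Veh and 0.99 (SE 0.20, p = 4.4e-05, adjusted p = 0.068) for Dox + ABT against Dox, the smallest p among the members.

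Emcn encodes endomucin, a sialomucin of capillary and venous endothelium. It was a low member, with 40.8 to 96.6 normalized counts in Veh (median 54.7), 8.54 to 67.0 in Dox (median 38.7) and 53.1 to 83.0 in Dox + ABT (median 67.4). Dox rats 1 and 2, at 8.54 and 14.1, were the lowest of all rats, and 7 of 8 Dox rats lay below the Veh median. The differences were -0.85 (SE 0.26, p = 0.0033, adjusted p = 0.26) for Dox against Veh and 1.06 (SE 0.28, p = 0.00065, adjusted p = 0.14) for Dox + ABT against Dox. Without Dox rats 1 and 2 they were -0.37 (SE 0.18, p = 0.043) and 0.59 (SE 0.18, p = 0.0034).

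Vwf encodes von Willebrand factor, the clotting glycoprotein that endothelial cells store and secrete. Its normalized count ran from 296 through a median of 475 to 1309 in Veh, from 668 through 791 to 1675 in Dox and from 200 through 449 to 728 in Dox + ABT. The lowest Dox rat lay above the Veh median, and 7 of 8 Dox + ABT rats lay below every Dox rat. The differences were 0.89 (SE 0.26, p = 0.0019, adjusted p = 0.21) for Dox against Veh, -0.20 (SE 0.26, p = 0.44) for Dox + ABT against Veh and -1.09 (SE 0.27, p = 0.00042, adjusted p = 0.13) for Dox + ABT against Dox. The highest Dox values, 1451 and 1675, belonged to rats 5 and 7, whose red cell transcripts were also the highest. Without these rats the Dox difference from Veh was 0.63 (SE 0.26, p = 0.023) and that of Dox + ABT from Dox -0.83 (SE 0.27, p = 0.0053).

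The other 12 endothelial surface and adhesion genes passed in no comparison with all rats and no term for the kind of library. With that term the role had 2 higher and 2 lower calls in Dox against Veh, against 2.70% of all genes. Within the kinds Egfl7 was higher in Dox than in Veh by 0.40 (SE 0.17, p = 0.023) in the first and 0.37 (SE 0.18, p = 0.044) in the second (limma). Cdh5 (VE-cadherin) and the angiopoietin receptor family genes Tek and Tie1 had means of 111, 133 and 230 normalized counts in Veh and 86.9, 105 and 169 in Dox, with overlapping ranges. Egfl7, Eng and Esam, a secreted vessel protein, a co-receptor of the TGF-beta family and an adhesion molecule of endothelial junctions, had Dox means of 111, 431 and 199 against 92.0, 368 and 145 in Veh. All 8 Dox rats were above the Veh median for Esam, with a difference of 0.47 (SE 0.17, p = 0.011, adjusted p = 0.36) that missed the threshold. Podxl (podocalyxin), Ptprb (the phosphatase VE-PTP) and Nostrin, a trafficking factor of endothelial nitric oxide synthase, had Dox means of 422, 277 and 61.7 against 367, 210 and 40.7 in Veh. Plvap, which marks fenestrated endothelium that lacks a barrier, was at 78.7 and 93.9 in Dox rats 1 and 2 against 22.7 to 40.8 in the other 6 Dox rats. It ran from 16.6 to 68.0 in Veh and from 24.1 to 46.5 in Dox + ABT. Ramp2, the partner of the adrenomedullin receptor, and Cav1, caveolin-1, had the smallest p of the role in Dox + ABT against Veh, at 0.19 and 0.16, with differences of -0.19 (SE 0.14) and -0.20 (SE 0.14). The mean of Ramp2 was 247 in Dox + ABT against 290.3 in Veh and 298 in Dox, and that of Cav1 was 265 against 306 and 282.

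Promoter sequence is shown for Emcn, Slco1a4 and Itm2a, called members of which RefSeq promoters were at hand, so that the letters of motifs read by transcription factor families in the list can be seen beside the genes' values. Each run is from RefSeq, build GRCr8, 250 bases before to 50 bases after the start of the gene, 5′ to 3′ on the gene's strand: chr2:228564289-228564588 (+) for Emcn, chr4:176495797-176496096 (-) for Slco1a4 and chrX:76565095-76565394 (-) for Itm2a. Capitals mark AGGAAG, a form of the ETS motif that Erg belongs to, ACAAT, a core of the SOX motif of Sox17 and Sox18, and GTAAACA, the forkhead motif of the Foxq1 family, each on either strand.
Emcn: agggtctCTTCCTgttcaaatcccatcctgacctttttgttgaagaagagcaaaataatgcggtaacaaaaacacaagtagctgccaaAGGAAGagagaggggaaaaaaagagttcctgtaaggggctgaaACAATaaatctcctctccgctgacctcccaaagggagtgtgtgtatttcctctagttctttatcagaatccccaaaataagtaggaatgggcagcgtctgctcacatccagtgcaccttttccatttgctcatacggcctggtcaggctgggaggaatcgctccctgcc
Slco1a4: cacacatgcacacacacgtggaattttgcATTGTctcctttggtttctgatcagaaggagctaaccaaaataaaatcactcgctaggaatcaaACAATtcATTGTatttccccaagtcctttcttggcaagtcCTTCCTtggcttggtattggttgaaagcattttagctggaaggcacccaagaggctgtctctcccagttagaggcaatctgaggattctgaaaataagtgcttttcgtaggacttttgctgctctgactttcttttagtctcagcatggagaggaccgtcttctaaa
Itm2a: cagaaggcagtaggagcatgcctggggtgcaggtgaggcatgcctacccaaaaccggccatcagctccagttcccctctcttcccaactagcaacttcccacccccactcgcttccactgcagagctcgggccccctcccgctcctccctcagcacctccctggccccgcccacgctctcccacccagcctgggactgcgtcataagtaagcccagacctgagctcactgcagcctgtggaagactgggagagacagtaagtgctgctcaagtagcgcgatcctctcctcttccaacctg
The Emcn run holds AGGAAG at 2 places and ACAAT at 1, the Slco1a4 run holds AGGAAG at 1 and ACAAT at 3, and the Itm2a run holds none of these letters. Of the 36 tested members, 22 had a promoter in the table, and AGGAAG was present in 8 of them, ACAAT in 6 and GTAAACA in 0, against 34.3%, 33.1% and 3.76% of the 27457 promoters of this length. These are matches of letters and no evidence of binding.

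The 3 tight junction genes passed in no comparison with all rats. Cldn5, the main claudin of brain endothelium, spread widely, with 420 to 1854 normalized counts in Veh (mean 975 ± 462, SD, n = 10), 637 to 1474 in Dox (mean 1062 ± 292, SD, n = 8) and 376 to 1184 in Dox + ABT (727 ± 256, SD, n = 8). Its differences were 0.21 (SE 0.24, p = 0.39) for Dox against Veh, -0.36 (SE 0.24, p = 0.15) for Dox + ABT against Veh and -0.57 (SE 0.26, p = 0.034) for Dox + ABT against Dox. The last reached -0.78 (SE 0.27, p = 0.0078, adjusted p = 0.32) without Dox rats 1 and 2. Ocln, occludin, ran the other way, with means of 83.9 ± 27.3 (Veh, n = 10), 60.6 ± 20.02 (Dox, n = 8) and 85.4 ± 14.4 (Dox + ABT, n = 8), each with SD. Its difference in Dox against Veh was -0.49 (SE 0.21, p = 0.025), and the 2 lowest rats, at 27.0 and 33.2, were again Dox rats 1 and 2, without which it was -0.19 (SE 0.17, p = 0.30). Ocln passed without Dox rats 5 and 7, at -0.64 (SE 0.22, p = 0.0072) for Dox against Veh and 0.71 (SE 0.23, p = 0.0046) for Dox + ABT against Dox. It also passed within the first kind of library, at -0.89 (SE 0.27, p = 0.0032) and 0.78 (SE 0.24, p = 0.0031), while in the second kind Dox and Veh differed by 0.0031 (SE 0.29, p = 0.99). Tjp1, the junction scaffold ZO-1, which neurons and glia also make, had the narrowest relative spread of the 3, with means of 1775, 1637 and 1966 and a difference of 0.26 (SE 0.10, p = 0.018, adjusted p = 0.29) for Dox + ABT against Dox. Within the first kind it was lower in Dox than in Veh, at -0.34 (SE 0.12, p = 0.0097), against 0.09 (SE 0.13, p = 0.51) in the second.

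Of the vascular transcription factors 4 were tested and none passed with limma, with 1 at an unadjusted p under 0.05 in Dox against Veh, 1 in Dox + ABT against Veh and 0 in Dox + ABT against Dox. Foxq1, a forkhead factor of barrier endothelium, and Sox17, a factor of arterial endothelium, were low, at 17.6 ± 6.68 and 29.4 ± 14.6 normalized counts (SD, n = 10) in Veh. In Dox they were at 24.5 ± 7.33 and 37.5 ± 6.13 (SD, n = 8). These were differences of 0.50 (SE 0.24, p = 0.046, adjusted p = 0.48) and 0.48 (SE 0.24, p = 0.059, adjusted p = 0.50). In Dox + ABT they were at 23.6 ± 7.31 and 41.3 ± 11.8 (SD, n = 8). The difference of Sox17 from Veh was 0.58 (SE 0.24, p = 0.025, adjusted p = 0.17). Sox18 and the ETS factor Erg stayed within 55.9 to 67.3 and 44.8 to 51.4 in group means.

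Among the 5 pericyte genes, Vtn was called. Vtn encodes vitronectin, a matrix protein that brain pericytes make. Its normalized count ran from 150 through a median of 291 to 387 in Veh, from 109 through 144 to 230 in Dox and from 161 through 196 to 288 in Dox + ABT. All 8 Dox rats and all 8 Dox + ABT rats lay below the Veh median, and 5 Dox rats lay below every Veh rat. The differences were -0.70 (SE 0.18, p = 0.00049, adjusted p = 0.14) for Dox against Veh, -0.35 (SE 0.18, p = 0.059, adjusted p = 0.24) for Dox + ABT against Veh and 0.35 (SE 0.19, p = 0.071) for Dox + ABT against Dox. Vtn also moved with the kind of library (0.58 higher in the second kind, p = 6.6e-05), and within the kinds the Dox difference was -0.62 (SE 0.19, p = 0.0035) in the first and -0.51 (SE 0.20, p = 0.018) in the second. Within the first kind Vtn was called in Dox + ABT against Dox, at 0.51 (SE 0.17, p = 0.0052, limma). With a term for the kind of library 1 of the 5 pericyte genes was called higher in that comparison.

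The other pericyte genes did not pass. Pdgfrb, the receptor through which pericytes are recruited, averaged 446 ± 74.4 (SD, n = 10), 459 ± 58.4 (SD, n = 8) and 484 ± 70.0 (SD, n = 8) in the 3 groups. Dox and Veh differed in it by 0.05 (SE 0.10, p = 0.64). Rgs5, a regulator of G protein signalling, and Abcc9, a potassium channel subunit, had Dox means of 98.1 and 114 against 115 and 102 in Veh, and differences of -0.16 (SE 0.29) and 0.16 (SE 0.21). Anpep, the aminopeptidase CD13, was at 32.6 ± 9.66 (SD, n = 10) in Veh and 24.6 ± 8.49 (SD, n = 8) in Dox. The difference was -0.41 (SE 0.21, p = 0.055, adjusted p = 0.50).

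The 3 tested smooth muscle genes did not pass either. Tagln, an actin-binding protein of contractile cells, had means of 111 ± 37.2 (SD, n = 10), 85.7 ± 25.3 (SD, n = 8) and 82.9 ± 20.9 (SD, n = 8). Its differences from Veh were -0.35 (SE 0.20, p = 0.092) in Dox and -0.39 (SE 0.20, p = 0.065) in Dox + ABT. Acta2, smooth muscle actin, had medians of 35.99, 45.8 and 33.5, and Myh11, the smooth muscle myosin heavy chain, medians of 110, 108 and 122. Within the kinds of library the Dox difference of Myh11 from Veh had opposite signs. It was -0.59 (SE 0.26, p = 0.033) in the first and 0.68 (SE 0.28, p = 0.022) in the second (limma).

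**Figure D3:**
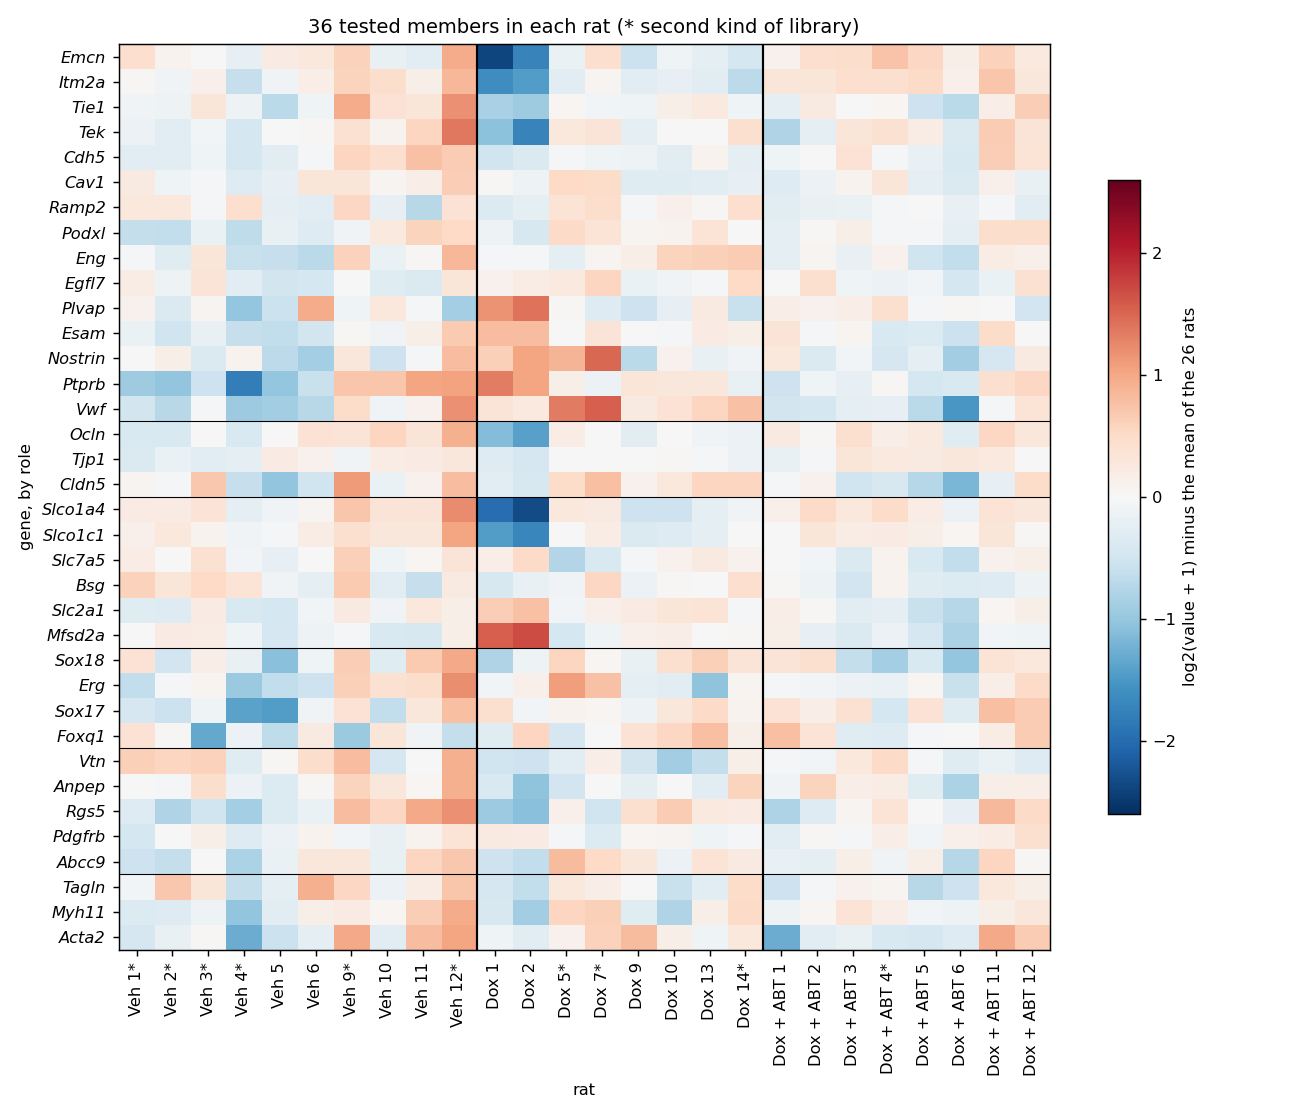
Each of the 36 tested members (rows, by role) in each of the 26 rats (columns, by group; an asterisk marks the second kind of library), as log2(value + 1) minus the gene's mean over all rats. Dox rats 1 and 2 hold the lowest values for Slco1a4, Slco1c1, Itm2a and Emcn and the highest for Mfsd2a, and Veh rat 12 holds the highest value in 16 rows.

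Seen by rat rather than by gene, Veh rat 12 had the highest value of all 26 rats for 16 of the 36 members. The lowest values were more spread, with 8 in Dox rat 2, 6 in Dox + ABT rat 6, 5 in Veh rat 4, 4 in Veh rat 5 and the others spread over rats of all 3 groups. How often each rat was highest or lowest over all tested genes was not counted, so these counts are no result about the members. Dox rats 1 and 2 together lay below all other rats for Tek, Tie1, Emcn, Itm2a, Ocln, Slco1a4, Slco1c1 and Rgs5, and above all others for Esam, Plvap, Slc2a1 and Mfsd2a. Both are libraries of the first kind. In these animals, then, the glucose and lipid carriers were at the top of all rats and the organic anion transporters at the bottom. Between rats the members varied less in Dox + ABT, with a median coefficient of variation of 21.6%, than in Dox (29.7%) or Veh (33.3%). Over all tested genes it was also lowest in Dox + ABT, at 16.9% against 21.5% and 21.1%, and 7 of the 8 Dox + ABT libraries are of 1 kind; the difference in spread was not tested.

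Leaving out Dox rats 1 and 2, the comparison of Dox with Veh called 4 members, with 1.16% of all genes called: Vwf higher, and Slco1c1, Itm2a and Vtn lower. The differences were smaller than with all rats, at -0.38 (SE 0.12, p = 0.0045) for Slco1c1 and -0.44 (SE 0.15, p = 0.0079) for Itm2a, while Vtn was at -0.65 (SE 0.20, p = 0.0031). All 8 members called in Dox against Veh or in Dox + ABT against Dox kept the sign of both differences without these rats. Dox + ABT against Dox then called 4 members, Itm2a and Emcn higher and Vwf and Cldn5 lower, with 2.97% of all genes called. Slco1c1 was no longer called there (0.28, SE 0.13, p = 0.036), nor were Slco1a4, Slc2a1 and Mfsd2a, as given above.

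Leaving out Dox rats 5 and 7, which had the most red cell transcripts, 8 members were called in Dox against Veh, with 7.25% of all genes called. Slco1a4, Slco1c1, Itm2a, Emcn and Vtn then had adjusted p-values of 0.036, 0.036, 0.040, 0.047 and 0.047 (limma). In Dox + ABT against Dox 8 members were called, with 5.98% of all genes called, and Itm2a and Emcn had adjusted p-values of 0.037 and 0.040. Dox rats 1 and 2 stay in these fits. With rats 1 and 2 left out instead, the adjusted p-values in Dox against Veh were 0.84, 0.70, 0.77, 0.97 and 0.70, in the same order (limma). Those of Itm2a and Emcn in Dox + ABT against Dox were then 0.22 and 0.29.

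Within the first kind of library, 4 Veh, 5 Dox and 7 Dox + ABT rats, 9 members were called in Dox against Veh (4.68% of all genes), 0 in Dox + ABT against Veh with 2 at an unadjusted p under 0.05 (0.673%), and 8 in Dox + ABT against Dox (8.12%). Of the last, 6 members had an adjusted p under 0.05 (limma), as did 223 of all 15595 genes. The Dox differences in this kind, which includes Dox rats 1 and 2, were -1.002 (SE 0.23) for Slco1c1, -1.29 (SE 0.31) for Slco1a4 and 1.05 (SE 0.26) for Mfsd2a. Within the second kind, 6 Veh and 3 Dox rats, Vwf was higher and Slc7a5 lower in Dox (5.25%), at 1.31 (SE 0.35, p = 0.0010) and -0.59 (SE 0.18, p = 0.0024), and Slco1c1 and Slco1a4 were at -0.24 (SE 0.24, p = 0.34) and -0.27 (SE 0.33, p = 0.41). Dox rats 5 and 7, with the most red cell transcripts, are 2 of these 3 Dox rats and hold the highest Vwf and, at 707 and 913, the lowest Slc7a5 of the Dox group; without them, with all other rats, Slc7a5 was at 0.06 (SE 0.13, p = 0.66) and Vwf at 0.63 (SE 0.26, p = 0.023). The 2 calls among 36 members are near the share of all genes. Mfsd2a turned sign in the second kind, at -0.25 (SE 0.27, p = 0.37), and Slc7a5 was at 0.25 (SE 0.17, p = 0.14) in the first kind. The difference between the kinds in the Dox effect passed p under 0.01 for 3 members, Mfsd2a, Slc7a5 and Myh11, against 7.75% of all genes, with p of 0.0019, 0.0018 and 0.0027 and adjusted p of 0.090, 0.090 and 0.096 (limma). The kinds themselves, which were found from these values, differed for 5 members, all higher in the second kind, against 35.1% of all genes.

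**Figure D4:**
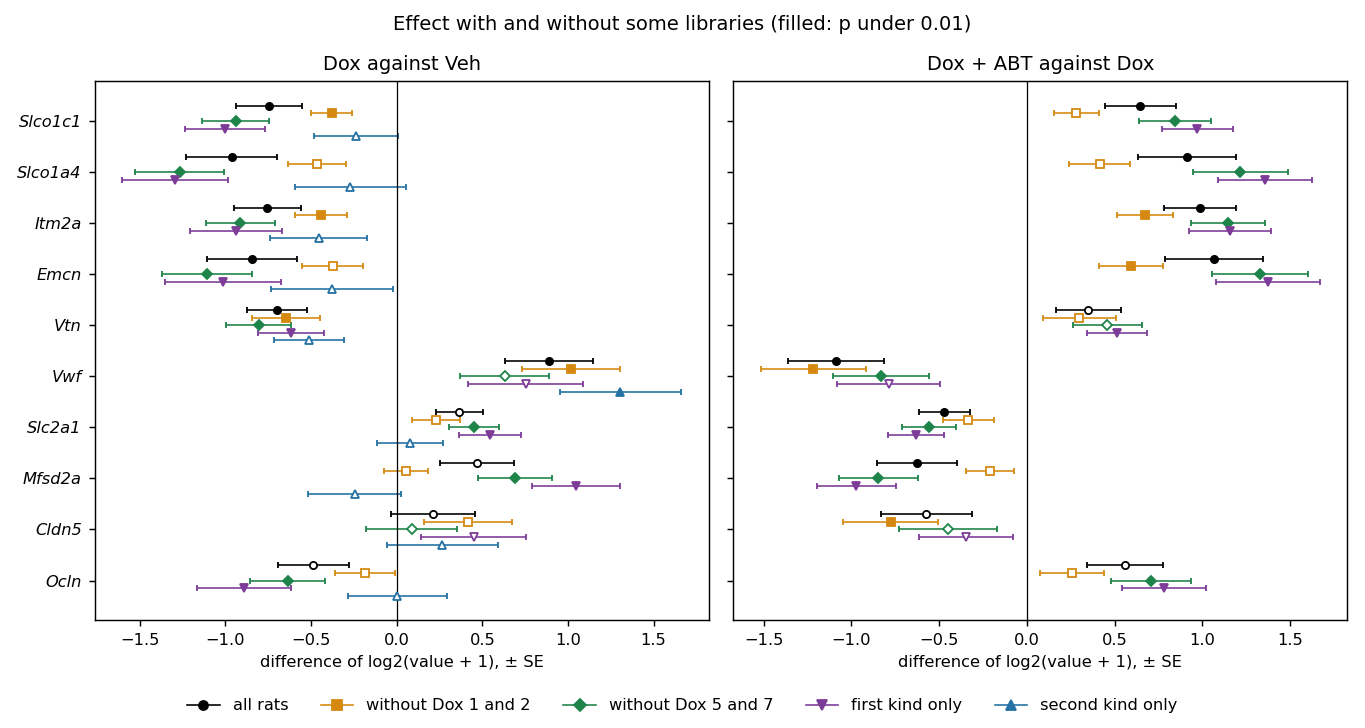
Difference of log2(value + 1) with SE for the 8 called members, Cldn5 and Ocln, in Dox against Veh (left) and Dox + ABT against Dox (right). Points are for all rats, without Dox rats 1 and 2, without Dox rats 5 and 7, and within the first kind of library. The second kind, with 1 Dox + ABT rat, is shown on the left only. Filled points passed p under 0.01. Mfsd2a moves from 0.47 to 0.05 in Dox against Veh when Dox rats 1 and 2 are left out, while Vtn moves from -0.70 to -0.65.

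A further 71 vascular genes outside the list were counted in the same way, of which 66 were tested. They too were chosen with earlier results of these data known. In Dox against Veh 5 of 66 passed, 7.58% of them against the 2.87% of all genes given above. Kdr, the main VEGF receptor of endothelium, and the taurine carrier Slc6a6 were higher, at 127 ± 29.3 (SD, n = 8) against 74.8 ± 29.1 (SD, n = 10) and 634 ± 289 against 387 ± 171. The glutamine carrier Slc38a5, the efflux pump Abcg2 and the leukocyte adhesion molecule Vcam1 were lower, at 11.3 ± 5.602 against 27.6 ± 13.3, 115 ± 40.5 against 175 ± 55.0 and 401 ± 66.8 against 528 ± 73.6. Dox rats 1 and 2 had the highest Slc6a6 of all rats, at 1101 and 949, and without them the calls of Slc6a6 (0.41, SE 0.23, p = 0.094) and Abcg2 (-0.37, SE 0.19, p = 0.064) were lost, while Kdr, Slc38a5 and Vcam1 still passed. With all rats the p-values of these 5 ran from 0.00054 for Kdr to 0.0082 for Slc6a6, with adjusted p of 0.14 and 0.32 (limma). In Dox + ABT against Veh 4 of 66 passed, 6.06% and below the 7.84% of all genes, so the count is no result about these genes: the transferrin receptor Tfrc was 0.64 higher, and Notch3 and Cspg4 of mural cells and the glutamine carrier Slc38a3 were at -0.56, -0.35 and -0.38. Notch3, a receptor that mural cells depend on, averaged 346 ± 83.8 (Veh, n = 10), 269 ± 52.6 (Dox, n = 8) and 231 ± 38.4 (Dox + ABT, n = 8), each with SD. With a term for the kind of library 1 of the 66 passed there, against 1.37% of all genes. In Dox + ABT against Dox 2 of 66 passed, 3.03% and below the 4.03% of all genes, and 5 with that term, against 4.76%: with all rats the endothelial transcription factor Klf4 was at -0.96 (p = 0.0021; -0.85, p = 0.012 without Dox rats 1 and 2 and -0.79, p = 0.013 without rats 5 and 7) and the arginine carrier Slc7a3 at 0.70 (p = 0.0030).

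Markers of neighbouring cell types moved in some of the same comparisons, and their part in the results above was not tested. Their counts stand beside 2.87% of all tested genes called in Dox against Veh. The shares were 7.84% in Dox + ABT against Veh and 4.03% in Dox + ABT against Dox. Of 7 listed perivascular fibroblast and meningeal genes, 2 were lower in Dox than in Veh and 2 were higher in Dox + ABT than in Dox; their summed level, led by Mgp, was 229 to 332 normalized counts in Dox (median 283), 220 to 444 in Veh (median 336) and 250 to 618 in Dox + ABT (median 348), and none of the 7 was at 0 in any rat. Of 7 astrocyte genes 3 were lower in Dox than in Veh, with summed levels, led by Gfap, of 45248 to 55408 against 52307 to 77221, and 1 was lower in Dox + ABT than in Veh and 1 higher in Dox + ABT than in Dox. Gfap alone averaged 13352 ± 3228 (Dox, n = 8) against 22475 ± 5246 (Veh, n = 10), each with SD. The 7 astrocyte genes did not all move this way in Dox against Veh. With all rats 2 had a difference above 0 and 5 below, with a median of -0.13 on the log2 scale. With a term for the kind of library 0 were above and 7 below. Of 6 microglia genes 3 were lower in Dox than in Veh, with summed levels, led by Csf1r, of 2881 to 4577 against 3186 to 5582, and 1 was lower in Dox + ABT than in Veh. Of 6 oligodendrocyte genes 2 were lower in Dox than in Veh, with summed levels, led by Mbp, of 46145 to 70853 against 42163 to 118626, and 1 was higher in Dox + ABT than in Dox. The 5 red cell genes, led by Hbb, had median summed levels of 12266 (Veh), 19909 (Dox) and 5888 (Dox + ABT), and none passed in a comparison, with 2 at an unadjusted p under 0.05 in Dox against Veh, 0 in Dox + ABT against Veh and 3 in Dox + ABT against Dox. With a term for the kind of library all 5 red cell genes were higher in Dox than in Veh (median log2 difference 1.56, against 2.70% of all genes called), and within the second kind 3 of 5 were (median 1.99); all 5 were also higher in the second kind than in the first. The 8 choroid plexus genes, led by Ttr, of which 5 were tested and 4 were at 0 in at least 1 rat, had summed levels of 42.8 to 328 in Dox, 51.2 to 195 in Veh and 64.7 to 423 in Dox + ABT, and 1 was higher in Dox + ABT than in Dox. In Dox rats 1 and 2 the fibroblast sums were 294 and 297, the astrocyte sums 49280 and 48492 and the red cell sums 25750 and 29132. Their choroid plexus sums, 210 and 199, lay above the highest Veh rat, with Ttr at 121 and 96.2 against 6.22 to 94.5 in Veh. The sums of Dox rats 5 and 7, 228 and 328, lay above it through Aqp1, a water channel that red cells also make, at 161 and 230.4 against 3.30 to 27.1 in Veh, while their Ttr, 33.8 and 53.8, was within the Veh range. The microglia sums of Dox rats 1 and 2, 2881 and 3169, lay below the lowest Veh rat, as did that of Dox rat 5 at 3113. Of the 4 granule cell markers 1 was lower in Dox + ABT than in Veh. The 4 tested markers of CA field neurons, led by Wfs1, passed in none of the 3 comparisons, with none at an unadjusted p under 0.05.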

How the data were processed

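The values are the deposited signal of 26 DG libraries: normalized counts that, per the labels and the study's methods, the authors made from Ion Proton reads of poly(A) RNA, aligned to rn6 with STAR 2.5.3a in Partek Flow and scaled by the Median Ratio method; replicates were not pooled. How rows were counted over shared or antisense sequence is not given in the sources used here. Of the low values of single-row genes, 72.8% to 78.8% by library were whole multiples of 1 read (tolerance 0.02), so reads were not recovered and no count model was run; the same steps gave the read estimates. The 24012 rows were summed to 17910 gene IDs and filtered at a mean of 5. All 26 rats were fitted in 1 model with a term for each of 3 groups by limma 3.58.1 (lmFit, contrasts.fit, eBayes with trend) in R 4.3.3 on log2(value + 1), two-sided. A gene was called at p under 0.01, as in the study; adjusted p-values are Benjamini-Hochberg over all tested genes. Fold changes on this scale understate those of low genes. The fit was tested on simulated data. Kinds of library came from the largest gap along the first principal component of within-group deviations (28.4% of their variance; genes with a mean of at least 20). Same-numbered rats of different groups are different animals, and the correlations of their deviations ran from -0.17 to 0.30 over 16 pairs, so the numbers do not pair them. The members and lists were chosen with earlier results of these data known. Every tested member is named with a level, and those called or among the 2 smallest p of their role in Dox or Dox + ABT against Veh are described more fully; other vascular genes are named where called, and other markers where most abundant of their list. Plvap, Esam, Tie1, Tek and Rgs5 were picked out for their values in Dox rats 1 and 2, and the levels of Gfap, Ttr and Aqp1 were added, after seeing the values. Alternatives changed the pseudocount (0.5, 5), the filter (none, or 20 in place of 5) and the rats (the compared groups alone), or used quantile normalization, trimmed means, arrayWeights, the kind of library as a covariate, the replicate number as a block, transcript rows and each rat left out; the kinds alone and the fits without 2 Dox rats were added after seeing the data. The table of reference genes names GRCr8, so no rn6 coordinates are given. Python 3.11.15 with matplotlib 3.10.9 made the figures.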

Additional observations from a re-analysis of the deposited data

Results flagged for a closer look

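In 1 of 108 tests of single rats within groups (36 members in 3 groups, on the log2 scale), a rat stood apart from its group: Slco1c1 was at 1199 normalized counts in Veh rat 12, against 784 in the next highest Veh rat. Chance flags about 1 in 20 such groups. Dox rats 1 and 2 lie close together and so are not found by a test of single rats.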

How the results depend on the processing

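The counts of called members stayed within 1.5 times those of all rats for both pseudocounts, both other filters, quantile normalization, trimmed means, transcript rows and the compared groups alone. With a term for the kind of library 2 members were called higher and 5 lower in Dox against Veh, against 2.70% of all genes. In Dox + ABT against Veh 0 were called, against 1.37%. In Dox + ABT against Dox 5 were higher and 3 lower, against 4.76%. With arrayWeights, which gives each library a weight, 20.2%, 34.0% and 10.3% of all genes were called in Dox against Veh, Dox + ABT against Veh and Dox + ABT against Dox, and with them 12, 5 and 9 members and 17, 18 and 9 other vascular genes, so more calls were made over all genes and not on the members alone; Itm2a was then at -0.44 (p = 0.024) in Dox against Veh. Within the second kind of library 2 members were called in Dox against Veh, and without Dox rats 1 and 2 4 in Dox + ABT against Dox. Of the other vascular genes, Dox + ABT against Dox called 4 with the compared groups alone, 4 after quantile normalization, 5 with a term for the kind of library and 6 within the first kind, against 4.51%, 4.09%, 4.76% and 8.12% of all genes; Dox + ABT against Veh called 1 with that term and 0 within the first kind (limma; 5 at an unadjusted p under 0.05); and Dox against Veh called 2 within the first kind, 3.03% of the 66 and below the 4.68% of all genes. The cause of these differences was not tested.

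Leaving out each rat in turn gave 5 to 9 called members in Dox against Veh, 0 to 1 in Dox + ABT against Veh and 5 to 8 in Dox + ABT against Dox, and 3 to 7, 2 to 8 and 1 to 5 other vascular genes, while 1.71% to 4.53%, 4.46% to 13.7% and 2.69% to 5.05% of all genes were called. The call of Emcn in Dox against Veh was lost without Dox rat 2 (-0.69, p = 0.012) and that of Slco1c1 in Dox + ABT against Dox without Dox rat 1 (0.51, p = 0.012) or 2 (0.47, p = 0.010). That of Mfsd2a, at p = 0.0099 with all rats, was lost for most single rats left out. No difference called with all rats turned sign in an alternative run, within the kinds included. Mfsd2a in Dox against Veh, not called with all rats, was called at 1.05 in the first kind and was at -0.25 in the second, and Slc7a5 was called at -0.59 in the second kind and was at 0.25 in the first. The calls of Slco1c1, Slco1a4, Itm2a, Emcn and Vtn in Dox against Veh were lost within the second kind, at -0.24, -0.27, -0.46, -0.38 and -0.51. Those of Vwf were lost within the first kind with differences of 0.75 (p = 0.034) in Dox against Veh and -0.79 (p = 0.012) in Dox + ABT against Dox, in the direction of all rats.

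The replicate numbers do not pair the rats; with them as a replicate block, 9 members were called in Dox against Veh, 0 in Dox + ABT against Veh and 8 in Dox + ABT against Dox, and 7, 4 and 2 other vascular genes, against 4.91%, 7.57% and 2.58% of all genes. Depth is estimated and no counting interval can be given, which limits the lowest members most.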
